A study of Mus musculus with 12 samples.

Results

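The interleukin-6 (IL-6) family was examined in tumor cells that carry wild-type RAC1 (WT) or the RAC1 A159V mutation. The genes described are 9 of the 33219 features in the count table: the ligands Osm, Lif, Il6, Il11 and Clcf1 and the receptor subunits Osmr, Lifr, Il6st and Il6ra. They were chosen by the CPM of Osm, which was higher in A159V than in WT cells, and by membership of its family, so the genotype difference of Osm is given as a description with no test. All 9 had enough counts to enter the fit of 14340 genes.

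Ligands of this family signal through receptor complexes that share gp130, the protein encoded by Il6st. Oncostatin M, encoded by Osm, binds gp130 together with the receptor subunit OSMR, while leukemia inhibitory factor (Lif) pairs gp130 with LIFR, and IL-6 first binds its own receptor IL6RA. The complexes activate Janus kinases (JAK), which phosphorylate the transcription factor STAT3, and STAT3 induces the inhibitor SOCS3, which dampens the same pathway. In tumors these ligands are known products of tumor cells, stromal cells and leukocytes, and oncostatin M in particular is known as a product of macrophages, neutrophils and T cells.

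MC38 is a mouse colon cancer line. The A159V cells carry a CRISPR-Cas9 knock-in at the endogenous Rac1 locus, described as homozygous. The labels do not name the clone that was sequenced, and clone 9 is the default named in the study's text, so the mutation and the clone cannot be told apart. WT or A159V cells were injected under the skin of C57BL/6 mice aged 6 to 8 weeks, and the mice received 100 μg of IgG isotype control or of an antibody to the checkpoint receptor PD1 (anti-PD1) every 3 days, beginning on day 3. On day 13 a magnetic kit that depletes other cells was used to purify the tumor cells. Each genotype was sampled with each treatment (WT IgG, A159V IgG, WT anti-PD1, A159V anti-PD1), and each of the 4 groups holds 3 mice.

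The libraries held between 14053582 and 21949942 counts. The detection floor, set at 3 counts, lay at 0.137 to 0.213 CPM, the counts of a gene scaled to a common library size. CPM values are scaled by TMM, an edgeR method that corrects for differences in library composition. Under IgG Rac1 itself was at 451 CPM in WT and 419.6 in A159V, under anti-PD1 at 423 and 372, and the counts do not show which allele the reads carry. The colon epithelial marker Epcam had at most 2 counts in any library, and the summed level of 8 epithelial markers was 1.53 to 5.90 CPM. Epithelial markers were thus nearly absent from these cells, which the study's methods call colon adenocarcinoma. One library stood apart: in WT IgG replicate 1, genes with at least 8 kb of exon sequence were lower relative to genes under 2 kb by a log2 difference of -1.03, against -0.31 in WT IgG replicate 2 and between -0.05 and 0.27 in the other 10 libraries. Osmr, Lifr, Il6st and Il6ra all have more than 8 kb of exon sequence, so their fold changes are also given with this trend removed.

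To show the regulatory sequence in front of members whose levels are described below, 3 promoters are printed from RefSeq (GRCm38.p6), each 5′ to 3′ on the strand of the gene and ending at the base before the annotated start. Il6st and Il6ra are shown because both were lower in A159V than in WT cells under anti-PD1. Lif, the neighbour of Osm on chromosome 11, is shown because it holds a match to the AP-1 motif TGANTCA, printed in capitals.
Il6st, chr13:112463820-112464069, plus strand: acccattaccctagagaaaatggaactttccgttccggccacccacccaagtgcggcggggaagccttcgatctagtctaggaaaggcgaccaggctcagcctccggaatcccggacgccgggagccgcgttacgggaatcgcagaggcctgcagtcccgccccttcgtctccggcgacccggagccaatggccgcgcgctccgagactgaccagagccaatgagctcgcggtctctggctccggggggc
Il6ra, chr3:89913197-89913446, minus strand: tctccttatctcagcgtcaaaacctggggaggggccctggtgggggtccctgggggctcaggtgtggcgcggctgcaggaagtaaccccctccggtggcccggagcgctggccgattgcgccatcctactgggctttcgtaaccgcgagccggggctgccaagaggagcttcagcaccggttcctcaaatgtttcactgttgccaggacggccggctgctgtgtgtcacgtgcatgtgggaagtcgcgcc
Lif, chr11:4257318-4257556, plus strand: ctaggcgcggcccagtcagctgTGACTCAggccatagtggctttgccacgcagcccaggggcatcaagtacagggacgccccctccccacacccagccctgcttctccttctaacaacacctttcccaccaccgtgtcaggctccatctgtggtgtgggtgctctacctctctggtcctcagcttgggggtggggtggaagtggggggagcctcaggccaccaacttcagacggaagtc
The promoters of Il6st and Il6ra are rich in G and C, with 66% and 65.2% of bases and 26 and 18 CG dinucleotides, and the shown stretch of Lif has 62.8% and 6. RefSeq windows of 250 bases before to 50 bases after the start were searched for 7 of the 9 genes, which have 9 windows because Il11 and Lifr have more than one start. The STAT motif TTCNNNGAA, which reads the same on both strands, was found in none of the 9 windows, against 8.30% of all 32851 windows. The AP-1 motif, also the same on both strands, was found in windows of 4 genes, Il6, Il11, Lif and Osmr, against 7.81% of all windows. In Lif it began 228 bases before the RefSeq start, in Il6 249 bases and in Il11 98 bases before it, and in Osmr it lay after the start. A match of letters is a description of the window only.

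Osm was the member with the largest difference between the genotypes, and the one that chose the family. The gene lies on chromosome 11 (4236420 to 4241026, plus strand, mm10, GENCODE M21). Its level in the WT IgG samples was 8.69, 6.55 and 6.17 CPM, and in the WT anti-PD1 samples it was 5.23, 5.36 and 5.23 CPM. In the A159V IgG samples it was 25.0, 19.6 and 19.6 CPM, and in the A159V anti-PD1 samples 29.0, 21.7 and 24.4 CPM. Every A159V sample was above every WT sample, and within each genotype the 3 samples of a group lay close together. These levels rest on at least 80 counts per WT library and 369 to 533 per A159V library. The mean under IgG was 7.14 ± 1.36 CPM (SD, n = 3) in WT and 21.4 ± 3.09 in A159V, and the log2 fold change was 1.58. Under anti-PD1 it was 5.28 ± 0.077 CPM in WT and 25.0 ± 3.72 in A159V, and the log2 fold change was 2.25. In bulk RNA, fewer cells of one type and less RNA per cell cannot be told apart.

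The response of Osm to anti-PD1 played no part in choosing the genes. In WT cells Osm was lower with anti-PD1 than with IgG in every sample, with a log2 fold change of -0.44 (SE 0.18), which missed the threshold (adjusted p = 0.151, edgeR quasi-likelihood test with Benjamini-Hochberg adjustment over 14340 genes). In A159V cells the samples of both treatments overlapped, and the log2 fold change was 0.23, with a 95% interval from -0.14 to 0.59. Ordered by level, the WT groups came first (anti-PD1, then IgG) and the A159V groups after them (IgG, then anti-PD1), and neither pair of neighbours within a genotype differed by the test.

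Markers of leukocytes that are known to make oncostatin M were measured in the same libraries. The 8 neutrophil markers summed to 0.213 to 2.61 CPM over all libraries, with Ly6g at 0 in all 12. The 8 T and natural killer (NK) cell markers summed to 0.476 to 0.946 CPM in the A159V libraries, against 1.47 to 5.32 in WT IgG and 17.1 to 33.1 in WT anti-PD1. The 8 macrophage markers summed to 39.3 to 57.5 CPM in A159V IgG and 41.8 to 45.1 in A159V anti-PD1, against 25.5 to 30.4 in WT IgG and 31.8 to 46.8 in WT anti-PD1. Most of that sum was Cd68, and the macrophage marker Adgre1 had at most 2 counts in any library. The T and NK sums were thus lower in A159V, the neutrophil sums overlapped between the genotypes, and the macrophage sums were higher in A159V under IgG and overlapped under anti-PD1. The part of the macrophage markers in the level of Osm was not tested apart from the other leukocyte markers. The 4 B cell markers summed to 7.01 to 8.79 CPM in the A159V libraries and 3.49 to 6.46 in the WT libraries, so they moved with Osm, and their part in its level was not tested. With a score of 8 leukocyte markers as a covariate, the log2 fold change of Osm was 1.70 under IgG and 2.64 under anti-PD1. Under anti-PD1 the score was 0.51 to 0.93 in WT and -2.01 to -1.83 in A159V. It cannot be told apart from the group there, so no conclusion is drawn from the value of 2.64.

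**Figure D1:**
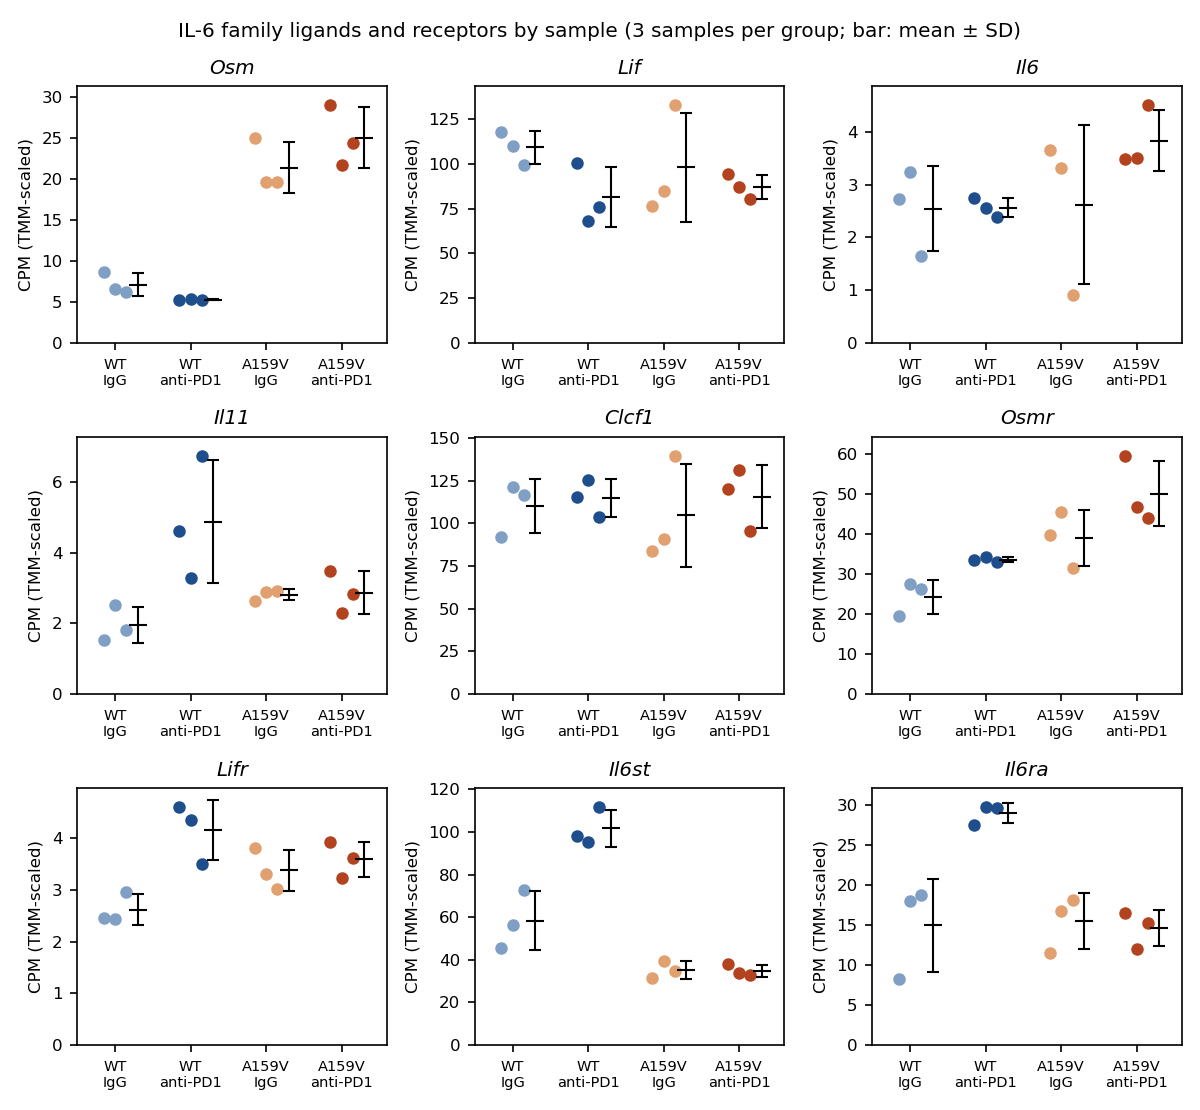
TMM-scaled CPM (y axis, from 0) of the 9 genes in the 3 samples of each group (x axis), with points for samples and a bar for the mean ± SD. Osm is at 5.23 to 8.69 CPM in the WT samples and 19.6 to 29.0 CPM in the A159V samples, Il6st is highest in WT anti-PD1, and the points for Clcf1 overlap between all groups.

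Of the other ligands Lif, Il6, Il11 and Clcf1, 0 were called in either genotype comparison, against 28% of all genes tested under IgG and 21.4% under anti-PD1. With 4 genes, nothing about the ligands as a group is read from this count. A call means that the adjusted p was under 0.05 and that the log2 fold change exceeded 0.3 in size. Lif (chromosome 11, 4257557 to 4272514, plus strand), a ligand known for maintaining stem cells in culture, was at 117.7, 110.0 and 99.5 CPM in WT IgG and at 76.1, 84.8 and 132.7 in A159V IgG. With anti-PD1 it was at 100.5, 68.2 and 76.0 CPM in WT and at 94.0, 87.0 and 80.5 in A159V. Under IgG the A159V samples spanned the WT samples and under anti-PD1 the WT samples spanned the A159V samples, with log2 fold changes of -0.16 (95% interval -0.59 to 0.27) and 0.10 (-0.34 to 0.53).

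Clcf1 (chromosome 19, 4214238 to 4223490, plus strand), a ligand known to act on B cells and neurons, was not called in either genotype comparison. Under IgG its mean was 110.0 ± 15.8 CPM in WT and 105 ± 30.2 in A159V, and under anti-PD1 it was 115 ± 10.9 and 116 ± 18.4. The 95% interval of the log2 fold change was -0.49 to 0.35 under IgG and -0.41 to 0.43 under anti-PD1. Clcf1 shares 311 exon bases with AC109138.7 on the same strand, so reads from these bases cannot be assigned to one of them.

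Il6 and Il11 were near the low end of detection. Il6 (chromosome 5, 30013114 to 30019981, plus strand), the founding ligand of the family, had 17 to 81 counts per library, at 2.73, 3.24 and 1.66 CPM in WT IgG and 3.65, 3.31 and 0.903 in A159V IgG. With anti-PD1 it was at 2.74, 2.55 and 2.39 CPM in WT and at 3.49, 3.51 and 4.51 in A159V. The 3 A159V anti-PD1 samples lay above the 3 WT anti-PD1 samples, but the log2 fold change of 0.58 had a 95% interval from -0.29 to 1.44 and an adjusted p of 0.324 by edgeR's quasi-likelihood test.

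Il11 (chromosome 7, 4772373 to 4782859, minus strand), a ligand known from stromal and epithelial cells, was highest in WT anti-PD1. It was at 1.53, 2.51 and 1.81 CPM in WT IgG and at 4.61, 3.29 and 6.74 in WT anti-PD1, on 28 to 121 counts per library. In A159V it was at 2.64, 2.88 and 2.92 CPM with IgG and at 3.49, 2.29 and 2.84 with anti-PD1. The WT anti-PD1 samples lay above all WT IgG samples and the A159V samples of both treatments overlapped. The log2 fold change with anti-PD1 in WT was 1.33 (SE 0.30), just short of a call (adjusted p = 0.0580), and between genotypes under anti-PD1 it was -0.77 (SE 0.29, adjusted p = 0.0728), both by edgeR. DESeq2 called both, and the genotype difference was also called with only the groups compared (adjusted p = 0.0308), with the length trend removed (0.0442) and without WT anti-PD1 replicate 2 (0.0424).

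The receptor subunits moved in opposite directions between the genotypes: Osmr was higher in A159V and Il6st was lower. Of the 8 genes other than Osm, 2 were called under IgG, 1 in each direction, against 28% of all genes tested, with 15.6% higher and 12.4% lower. Under anti-PD1 3 of 8 were called, 1 higher and 2 lower, against 21.4% of all genes, with 11.2% higher and 10.2% lower. The share under IgG was close to the background and the share under anti-PD1 was above it. With 8 genes, nothing about the family as a group is read from these counts. The median log2 fold change of the 8 was 0.05 under IgG and -0.10 under anti-PD1, and over all genes tested it was 0.02 and 0.06. With upper-quartile scaling in place of TMM, the split of all calls changed from 2231 higher and 1779 lower to 1337 and 2313 under IgG and from 1613 and 1462 to 931 and 1788 under anti-PD1, while Osmr and Il6st kept their directions and calls under both treatments and Il6ra its call under anti-PD1. Under IgG, where Il6ra was not called, its log2 fold change was 0.05 with TMM and -0.08 with upper-quartile scaling. That scaling moved the median of all genes under IgG by -0.14, and relative to the median Osmr differed by 0.66 with either scaling and Il6st by -0.75 with TMM and -0.74 with upper-quartile scaling.

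Osmr (chromosome 15, 6813577 to 6874969, minus strand), the subunit that makes the receptor specific for oncostatin M, was at 19.5, 27.4 and 26.1 CPM in WT IgG and at 39.9, 45.6 and 31.5 in A159V IgG. With anti-PD1 it was at 33.5, 34.3 and 33.0 CPM in WT and at 59.5, 46.8 and 44.1 in A159V. The genotypes did not overlap under either treatment. The rise was 1.60-fold under IgG (log2 fold change 0.68, SE 0.17, adjusted p = 0.0130, edgeR) and 1.49-fold under anti-PD1 (0.58, SE 0.17, adjusted p = 0.0314). The call under IgG was lost without WT IgG replicate 1 (log2 fold change 0.48, adjusted p = 0.0504) and without A159V IgG replicate 2 (0.56, adjusted p = 0.0587). The call under anti-PD1 remained without A159V anti-PD1 replicate 3 and was lost without any other of the 6 samples, with adjusted p between 0.0526 and 0.127 and log2 fold changes between 0.44 and 0.63, and with at least 10 counts required in every sample (0.49, adjusted p = 0.0632). With only the groups compared, the call under IgG was lost too (0.60, adjusted p = 0.0934).

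Il6st (chromosome 13, 112464070 to 112510086, plus strand) had the largest difference between the genotypes among the 8 genes tested, under both treatments. It was at 45.6, 56.4 and 73.0 CPM in WT IgG and at 31.4, 39.5 and 34.8 in A159V IgG. With anti-PD1 it was at 98.3, 95.3 and 111.7 CPM in WT and at 38.0, 33.8 and 32.8 in A159V. Every A159V sample was below every WT sample, and within WT every anti-PD1 sample was above every IgG sample. Il6st was 1.66-fold lower in A159V under IgG (log2 fold change -0.73, SE 0.17, adjusted p = 0.0071, edgeR) and 2.92-fold lower under anti-PD1 (-1.55, SE 0.17, adjusted p = 9.83e-05). Leaving out any 1 sample kept both calls, with log2 fold changes from -0.94 to -0.53 under IgG and from -1.61 to -1.47 under anti-PD1.

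Il6ra (chromosome 3, 89864059 to 89913196, minus strand), which binds IL-6 itself, differed between the genotypes under anti-PD1. It was at 8.25, 18.0 and 18.7 CPM in WT IgG and at 11.5, 16.8 and 18.2 in A159V IgG, which overlapped. With anti-PD1 it was at 27.5, 29.8 and 29.7 CPM in WT and at 16.5, 12.1 and 15.3 in A159V, which did not. Il6ra was 1.98-fold lower in A159V under anti-PD1 (log2 fold change -0.99, SE 0.26, adjusted p = 0.0185, edgeR), and under IgG the log2 fold change was 0.05 with a 95% interval from -0.52 to 0.62. The call under anti-PD1 was lost without WT anti-PD1 replicate 2 (adjusted p = 0.0546) or 3 (0.0644) and without A159V anti-PD1 replicate 2 (0.0753) or 3 (0.0589), with log2 fold changes between -1.02 and -0.86. Il6ra shares 242 exon bases with the antisense gene Gm42809, and whether the counting used the strand is not given in the sources used here.

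Lifr (chromosome 15, 7090614 to 7197489, plus strand), the receptor subunit for LIF, was the least abundant member per length and did not differ between the genotypes by the test. It was at 2.46, 2.45 and 2.96 CPM in WT IgG and at 3.81, 3.31 and 3.03 in A159V IgG. With anti-PD1 it was at 4.61, 4.36 and 3.51 CPM in WT and at 3.92, 3.24 and 3.62 in A159V. The groups did not overlap under IgG, with a log2 fold change of 0.36 (95% interval -0.09 to 0.82), and overlapped under anti-PD1, with -0.21 (-0.65 to 0.23). Under IgG 4 of the 8 genes had groups that did not overlap, against 35.8% of all genes, and under anti-PD1 4 of 8, against 56.1%.

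**Figure D2:**
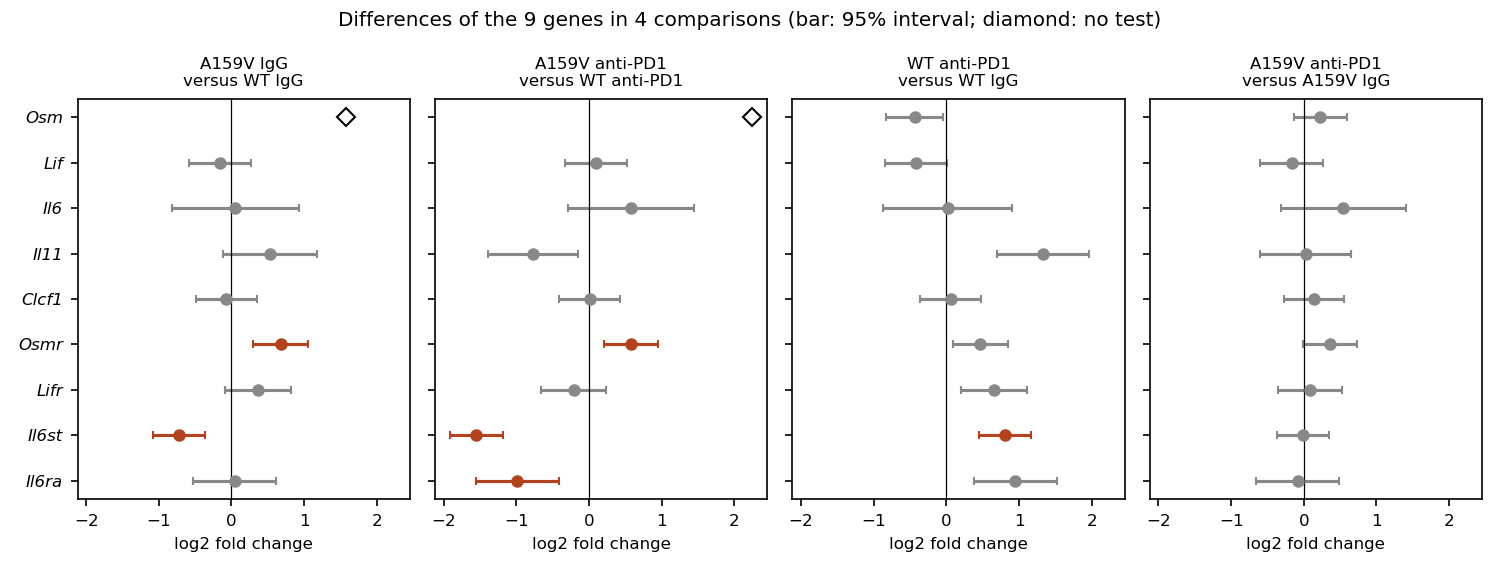
Log2 fold changes (x axis) of the 9 genes (y axis) in 4 comparisons, with 95% intervals from the edgeR fit. Dark points passed the threshold, gray points did not, and open diamonds mark the genotype differences of Osm, which chose the genes and were not tested. Il6st lies at -0.73 and -1.55 in the genotype comparisons, and all 9 intervals in the comparison within A159V span 0.

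Removing from each library its smooth trend of expression with exon length, an alternative chosen after seeing the data, left the genotype calls of the receptors in place. Osmr then differed by 0.47 under IgG (adjusted p = 0.0191) and 0.73 under anti-PD1 (adjusted p = 0.0019), and Il6st by -0.92 (adjusted p = 0.000118) and -1.42 (adjusted p = 5.66e-06), all log2 fold changes by edgeR. Il6ra under anti-PD1 differed by -0.94 (adjusted p = 0.0075), and under IgG, where it was not called, its log2 fold change was -0.09 (adjusted p = 0.778). Lifr was at 0.16 under IgG (adjusted p = 0.604) and -0.09 under anti-PD1 (adjusted p = 0.779), and was not called.

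Markers of T and NK cells were highest in the group in which Il6st and Il6ra were highest. The plot against T and NK markers shows WT anti-PD1 apart from the other groups, with 7 of 8 markers above 3 counts in every WT anti-PD1 library, 2 of 8 in every WT IgG library and at most 1 of 8 in every library of either A159V group. Under IgG the T and NK sums were also lower in A159V while Il6ra had a log2 fold change of 0.05. The macrophage sums, mostly Cd68, were higher in A159V under IgG while Il6st was lower. Single macrophage markers differed: mean Cd68, Lyz2 and Csf1r were higher, but C1qb fell from 0.61 CPM in WT to 0.31. C1qa, Mrc1 and Adgre1 were also lower and C1qc was level, all on few counts. Mean Ptprc, part of the leukocyte score, fell from 1.31 CPM in WT to 0.10 in A159V under IgG. Its samples overlapped, at 0.18 to 2.81 CPM in WT IgG and 0 to 0.21 in A159V IgG. The part of these markers in the levels of Il6st and Il6ra was not tested apart from that score. The 6 endothelial markers summed to 13.9 to 15.2 CPM in WT anti-PD1 and 5.95 to 9.99 in the other groups. Cdh5 made up most of that sum, with a mean of 11.3 CPM in WT anti-PD1. Pecam1, Kdr and Vwf also had their highest mean there. Tie1 did not: its mean under anti-PD1 was 0.34 CPM in WT and 0.89 in A159V, and under IgG 0.13 and 0.80. Emcn, with at most 2 counts in any library, was at 0 in WT anti-PD1. The part of the endothelial markers in the levels of Il6st and Il6ra was not tested. With the leukocyte score as a covariate, 0 of 8 genes were called in either genotype comparison. Il6st then differed by -0.69 under IgG (adjusted p = 0.132) and by -1.42 under anti-PD1 (adjusted p = 1.00), and Osmr by 0.52 (adjusted p = 0.284) and 0.0055 (adjusted p = 1.00), by edgeR. In the same fit 532 of all genes were called under IgG, against 4010 without the covariate, and 2 under anti-PD1, against 3075. The score was 0.51 to 0.93 in WT anti-PD1 and -2.03 to -0.84 in the other groups, so under anti-PD1 it cannot be told apart from the group. The sum of the 8 fibroblast markers was also lower in A159V, at 307 to 761 CPM in the WT libraries and 190.0 to 265 in the A159V libraries. Not every marker went this way: mean Pdgfra under IgG was 45.9 CPM in WT and 70.5 in A159V. Mean Acta2 was higher in A159V under IgG (1.26 CPM in WT, 1.54 in A159V) and under anti-PD1 (0.48 and 2.24). The part of the fibroblast markers in the result was not tested.

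**Figure D3:**
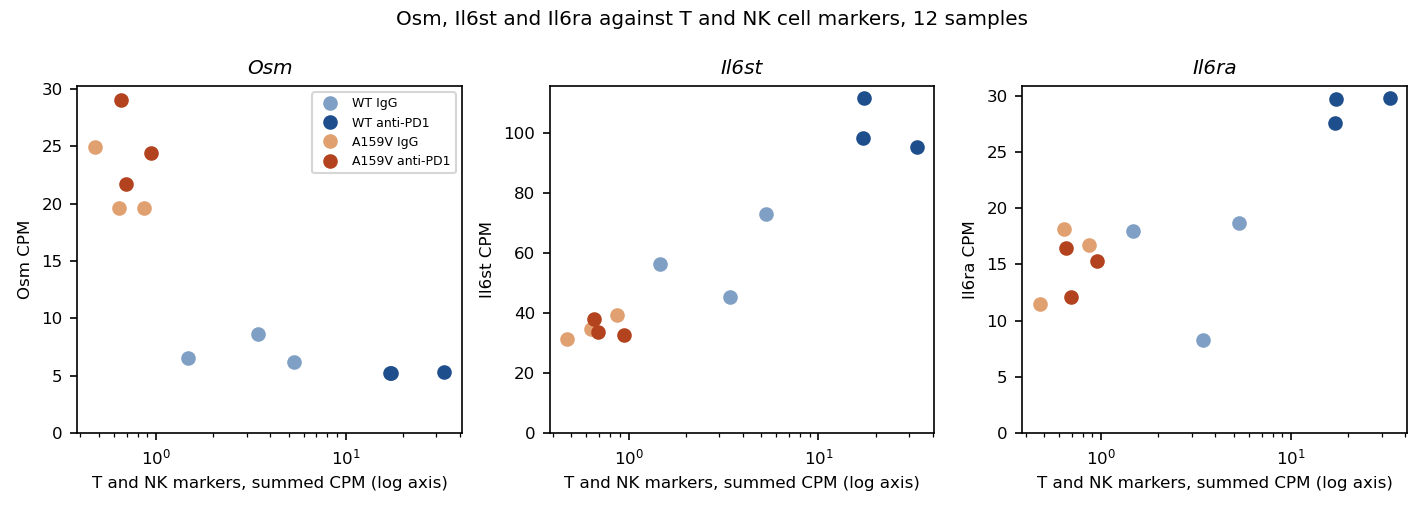
CPM of Osm, Il6st and Il6ra (y axes, from 0) against the summed CPM of 8 T and NK cell markers (x axis, log scale) in the 12 samples, colored by group. The 3 WT anti-PD1 samples lie at 17.1 to 33.1 CPM of markers with the highest Il6st and Il6ra, and Osm is high in the A159V samples, where the markers are below 1 CPM.

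In WT cells anti-PD1 was accompanied by more Il6st. It was 1.75-fold higher (log2 fold change 0.80, SE 0.16, adjusted p = 0.0492, edgeR), the single call among the 9 genes, against 0.628% of all genes. Il6ra (log2 fold change 0.95, adjusted p = 0.0776), Lifr (0.66, adjusted p = 0.0936) and Osmr (0.46, adjusted p = 0.121) had higher means and did not pass the threshold, and Lif had a log2 fold change of -0.42 (adjusted p = 0.193). The groups did not overlap for 6 of the 9 genes, against 34.6% of all genes. The call of Il6st lay at the threshold. It remained only without WT IgG replicate 4 (log2 fold change 1.00) and was lost without any 1 of the other 5 samples, with log2 fold changes from 0.65 to 0.85 and adjusted p from 0.104 to 0.172. With the length trend removed, Il6st differed by 0.47 (adjusted p = 0.0497), and the log2 fold change was 0.74 for Il6ra (adjusted p = 0.0862), 0.32 for Lifr (adjusted p = 0.367) and 0.08 for Osmr.

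In A159V cells 0 of the 9 genes were called with anti-PD1, as were 0 of all 14340 genes by edgeR and 2 by DESeq2, neither a member. At an unadjusted p under 0.05, 0 members and 521 genes passed. Il6st had a log2 fold change of -0.02 with a 95% interval from -0.37 to 0.34, and Il6ra -0.09 with an interval from -0.66 to 0.49. Osmr, at 0.36 with an interval from -0.01 to 0.73, was the member with the lowest p.

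The difference between the anti-PD1 responses of both genotypes was tested as an interaction. Of the 8 genes other than Osm, 0 passed by edgeR, voom or DESeq2, against 0.00697% of all genes by edgeR, and 3 had an unadjusted p under 0.05 by edgeR. The log2 difference was -0.82 for Il6st (SE 0.23, unadjusted p = 0.0038, adjusted p = 0.186), -1.30 for Il11 (SE 0.41, unadjusted p = 0.0076, adjusted p = 0.210) and -1.04 for Il6ra (SE 0.37, unadjusted p = 0.0157, adjusted p = 0.225). For Osm it was 0.66, given without a test because it combines the comparisons that chose the genes. A call in WT and none in A159V is therefore not shown to be a difference between the genotypes, except that without WT IgG replicate 4 the interaction of Il6st passed (log2 difference -1.01, adjusted p = 0.0318, edgeR).

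Between genes, levels were compared per kilobase of exon. Over the 12 samples the mean was 29.2 ± 4.66 (SD) CPM per kb for Clcf1 and 21.6 ± 4.39 for Lif. Osm followed with 6.47 ± 4.08 and Il6st with 5.19 ± 2.65, but their order differed between the genotypes. Il6st was above Osm in WT (5.26 against 3.14 CPM per kb with IgG, 9.17 against 2.32 with anti-PD1) and below it in A159V (3.17 against 9.41, and 3.14 against 11.02). Below them came Osmr with 3.04 ± 0.90, Il6ra with 2.14 ± 0.82, Il11 with 1.5 ± 0.67, Il6 with 1.19 ± 0.39 and Lifr with 0.319 ± 0.063, in this order. The sample ranges of neighbours in the order overlapped, except between Lif, whose lowest sample was 15.7, and Osm, whose highest was 12.8. Clcf1 and Lif were thus the most abundant ligand transcripts in all groups.

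Osm and Lif are neighbours, with starts 21.1 kb apart, and Lif was not called in either genotype comparison of the main fit. Under IgG Lif was called lower in A159V in 2 of 17 alternatives, with log2 fold changes from -0.51 to 0.00016 over the 17. In the 250 kb on either side of Osm, 17 other annotated genes were in the table and 10 were tested. Of the 10, 3 were called higher in A159V under IgG and 4 under anti-PD1, and 0 were called lower, against the 15.6% and 11.2% of all genes called higher. Sec14l2, which encodes a lipid-binding protein and starts 113 kb before Osm, was under IgG at 37.2 ± 2.76 CPM in WT and 83.1 ± 4.28 in A159V, and its log2 fold change was 1.16 under IgG and 0.62 under anti-PD1. Tbc1d10a was higher under both treatments (0.39 and 0.63), Sf3a1, which encodes a splicing factor, under IgG (0.51), and Castor1, which encodes an arginine sensor of the mTORC1 pathway, under anti-PD1 (0.73), as was Mtfp1 (0.68). Under IgG the count called higher was 1 with upper-quartile scaling, no filter, at least 10 counts in every sample, only the groups compared, or without WT IgG replicate 2 or A159V IgG replicate 2, and 5 with the length trend removed, while 1 was called lower without WT IgG replicate 1 and 2 without A159V IgG replicate 5. Under anti-PD1 3 to 5 were called higher in the alternatives other than the leukocyte score, and 1 was called lower by DESeq2 and with RLE or upper-quartile scaling, no filter, only the groups compared or the length trend removed. With the replicate number as a block, 1 was called lower in each comparison, and with the leukocyte score 1 was called higher under IgG and 0 under anti-PD1.

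**Figure D4:**
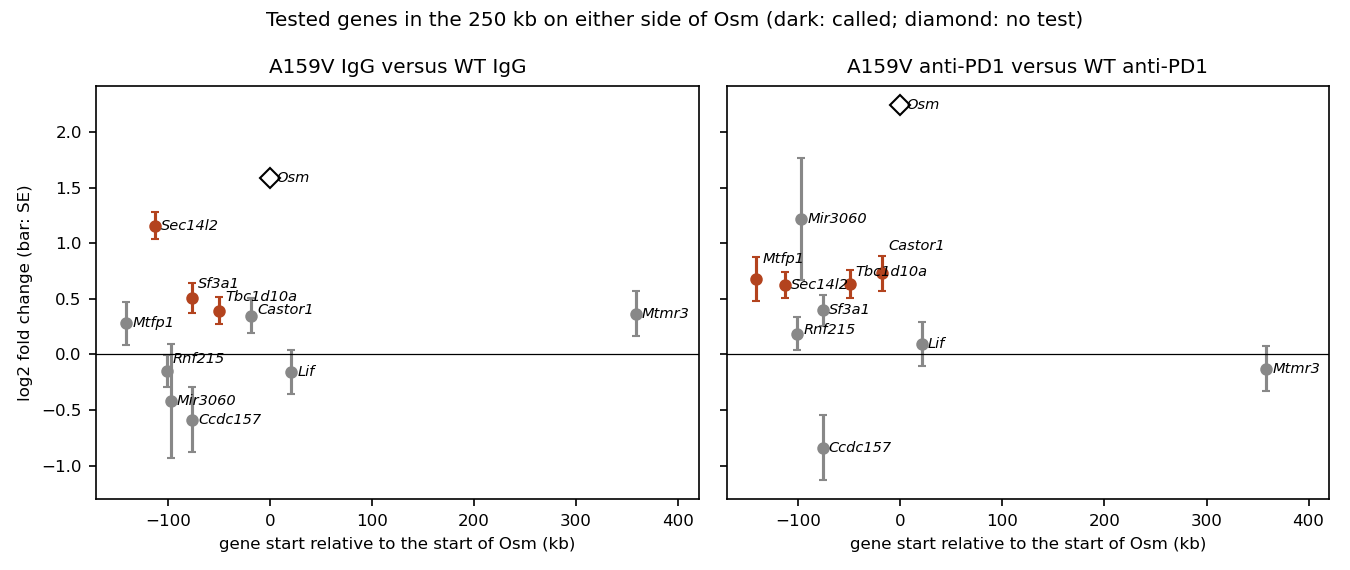
Log2 fold change between the genotypes (y axis, bars are the SE) against the distance of each gene's start from the start of Osm in kb (x axis) for Osm and the 10 tested genes around it. Dark points were called and the open diamond is Osm, not tested. Called genes lie before Osm, and Lif at 21.1 kb after it is near 0.

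The genes whose pattern over the 12 samples was most like that of Osm were Arhgdib (Pearson r = 0.979 in log2 CPM), Cth (0.976), Gsta4 (0.974), Immt (0.974) and Actg2 (0.973). They are given as a description, since the samples fall into genotypes and 12 libraries are shared by all genes. Cth, which encodes an enzyme that makes cysteine, had a mean under IgG of 0.647 CPM in WT and 10.8 in A159V, and under anti-PD1 of 0.487 and 10.5.

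Downstream of the receptors, genes for kinases, STAT proteins and adaptors included calls that were higher in A159V cells. Under IgG 6 of 17 tested were called higher, against 15.6% of all genes, and 0 lower, with a median log2 fold change of 0.43 against 0.02 for all genes. Stat3 rose from 120 ± 29.3 to 214 ± 15.6 CPM (log2 fold change 0.84, adjusted p = 0.0028, edgeR), Stat5a from 46.5 ± 6.81 to 74.5 ± 5.59 (0.68, adjusted p = 0.0025), Akt1 from 244 ± 5.62 to 330.0 ± 19.0 (0.43, adjusted p = 0.0115) and the kinase Jak1 from 150 ± 44.0 to 238 ± 24.5 (0.67, adjusted p = 0.0152). Ptpn11 and Gab1 were the other calls. Under anti-PD1 2 of the 17 were called higher, Grb2 (0.45) and Akt1 (0.41), and 0 lower, against 11.2% and 10.2% of all genes. The median log2 fold change under anti-PD1 was -0.09, against 0.06 for all genes. The median under IgG was 0.26 without WT IgG replicate 1, 0.28 with the length trend removed and 0.71 with the replicate number as a block. Stat3 under anti-PD1 had a log2 fold change of 0.03 with a 95% interval from -0.31 to 0.38. The count called higher under IgG depended on the setting: it was 4 without WT IgG replicate 1, A159V IgG replicate 1 or A159V IgG replicate 2, 2 without WT IgG replicate 2, 9 without WT IgG replicate 4 or A159V IgG replicate 5, 3 with upper-quartile scaling, 10 with the replicate number as a block and 1 with only the groups compared, and with the length trend removed 6 were called higher and 1 lower. Under anti-PD1 it was 0 without WT anti-PD1 replicate 3, without A159V anti-PD1 replicate 3 or with no filter on low counts, 1 without WT anti-PD1 replicate 2, with upper-quartile scaling or with at least 10 counts in every sample, and 2 higher and 3 lower with only the groups compared. With the leukocyte score as a covariate, 1 gene of this and the 3 lists below was called under IgG and 0 under anti-PD1.

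Inhibitors of the pathway were lower or higher depending on the gene. Socs1, a JAK inhibitor known as an interferon target, was lower in A159V under IgG (39.4 ± 12.4 to 21.8 ± 3.34 CPM, log2 fold change -0.86, adjusted p = 0.0144, edgeR) and under anti-PD1 (34.9 ± 6.16 to 19.2 ± 3.56, -0.87, adjusted p = 0.0163). Socs3, the STAT3-induced inhibitor that binds gp130, was at 103 ± 9.45 CPM in WT IgG and 83.8 ± 2.53 in A159V IgG, which did not pass (adjusted p = 0.298, edgeR), and fell from 175 ± 44.6 in WT anti-PD1 to 99.1 ± 28.8 in A159V anti-PD1 (-0.82, adjusted p = 0.0144). The phosphatases Ptpn1 (0.44) and Ptpn6 (0.68) and the sheddase Adam17 (0.49), which is known to release IL6RA from the membrane, were higher in A159V under IgG. Of 11 inhibitors and sheddases, 3 were called higher and 1 lower under IgG, against 15.6% and 12.4% of all genes. Under anti-PD1 0 were called higher and 2 lower, against 11.2% and 10.2%. The median log2 fold changes were 0.44 and -0.22, against 0.02 and 0.06 for all genes. Nothing about the list as a group is read from these counts. Under IgG the count called higher was 0 with upper-quartile scaling, no filter, at least 10 counts in every sample, only the groups compared, or without WT IgG replicate 2 or A159V IgG replicate 2, and 1 by DESeq2, with RLE size factors, or without WT IgG replicate 1 or A159V IgG replicate 1, which also left 0 called lower. Under anti-PD1 the count called lower was 5 with only the groups compared, 0 without WT anti-PD1 replicate 3 and 1 without WT anti-PD1 replicate 1 or any 1 A159V anti-PD1 sample.

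Genes listed as STAT3 targets moved both ways. Of 20 tested, 4 were called higher and 5 lower in A159V under IgG, against 15.6% and 12.4% of all genes. Under anti-PD1 3 were called higher and 4 lower, against 11.2% and 10.2%. The median log2 fold changes were 0.04 and -0.0045, against 0.02 and 0.06 for all genes. Nothing about STAT3 targets as a group is read from these counts. Lcn2, which encodes the iron-binding protein lipocalin-2, rose from 6.10 ± 2.86 to 22.9 ± 3.20 CPM under IgG (log2 fold change 1.91) and from 7.80 ± 3.18 to 21.1 ± 3.05 under anti-PD1 (1.44). The cytokine receptor gene Il4ra (0.84 and 0.70) and the adhesion molecule gene Icam1 (1.19 and 0.79) rose in both, and the kinase gene Pim1 rose under IgG (0.57). The immediate early gene Fos fell from 1073 ± 39.1 to 601 ± 133 CPM under IgG (-0.84) and from 1577 ± 447 to 439 ± 140 under anti-PD1 (-1.84), and Bcl6 (-0.58 and -0.76) and Mcl1 (-0.48 and -0.50) fell in both. Tgm2 fell under anti-PD1 (-0.77). Serpina3n was also called lower under IgG, from a WT mean of 4.03 ± 4.96 CPM whose SD exceeds it. The counts under IgG were 3 higher and 1 lower with only the groups compared, 3 of each without A159V IgG replicate 1 and 4 and 3 without A159V IgG replicate 2, and those under anti-PD1 were 5 and 7 with only the groups compared and 5 and 6 with the replicate number as a block.

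Among 6 other ligands and receptors of the family that were tested, 1 was called lower in A159V under IgG, against 12.4% of all genes. It was Il11ra1, the receptor subunit for IL-11 (5.94 ± 2.20 to 2.47 ± 0.95 CPM, log2 fold change -1.27). This call was lost without WT IgG replicate 1, A159V IgG replicate 1 or A159V IgG replicate 2 and with only the groups compared. Under anti-PD1 0 of the 6 were called, against 21.4% of all genes. With anti-PD1 in WT cells, 1 gene of these 4 lists was called, Birc5, which was lower (-0.77), against 0.628% of all genes called. In that comparison 8 kinases, STATs and adaptors were called higher without WT IgG replicate 4 and 10 with the replicate number as a block. With anti-PD1 in A159V cells and in the interaction, 0 genes of the 4 lists were called.

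**Figure D5:**
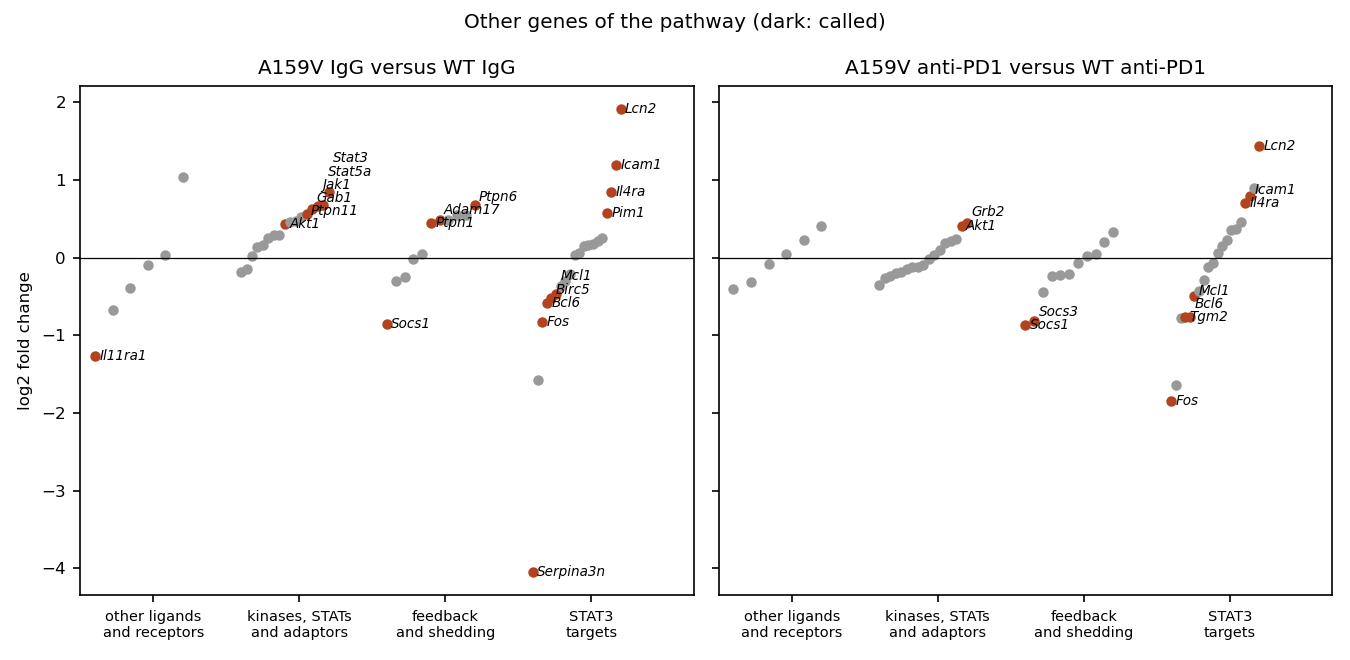
Log2 fold changes between the genotypes (y axis) of the other genes of the pathway under IgG (left) and anti-PD1 (right), in 4 lists (x axis) and sorted within a list. Dark points with names were called. Under IgG 6 of 17 kinases, STATs and adaptors are called higher, and under anti-PD1 2 of 17.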

How the data were processed

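Tumor cell RNA from 12 samples in 4 groups of 3 mice was measured by bulk RNA-seq of polyadenylated RNA with paired reads of 100 bp. According to the methods the authors aligned the reads to mm10 with STAR and counted them per gene with summarizeOverlaps, whose mode and strand setting are not given in the sources used here. The authors deposited raw counts per gene without normalization, with totals of 14053582 to 21949942 per sample. Groups and replicate numbers came from the sample titles. The floor of 3 counts covers counting error only.

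Counts were fitted with edgeR 4.0.16 in R 4.3.3: filterByExpr kept 14340 genes, libraries were scaled by TMM, and a quasi-likelihood model of the 4 groups (8 residual degrees of freedom) was tested for the genotypes under each treatment, for anti-PD1 in each genotype and for their interaction, with Benjamini-Hochberg adjustment over all genes tested. Osm was left out of the tests that contain its genotype difference, the interaction included, although the design had counted it there. The authors used DESeq2, which is an alternative here. A gene was called where its adjusted p was below 0.05 and its log2 fold change exceeded 0.3 in size. Levels are TMM-scaled CPM, and log2 CPM used a prior count of 2. Symbols and positions came from GENCODE M21, which matched 32064 features. Promoters came from RefSeq (GRCm38.p6), with no entry printed for Osm or Clcf1.

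The members and the gene lists were chosen with earlier results of these data known. The lists were written from general knowledge of the pathway. Named are all 9 members, the called genes of each list with the smallest p (up to 4 per direction), genes within 250 kb of the start of Osm and the 5 genes most correlated with Osm. Ptpn11 and Gab1 were named after their values were seen. Alternatives were RLE and upper-quartile scaling, no filter, at least 10 counts in every sample, DESeq2 1.42.0, voom in limma 3.58.1, no fold limit, only the groups compared, a block for the replicate number, omission of each sample in turn and a covariate for the leukocyte score. Removal of the exon length trend, and the repeats over the other lists, were added after seeing the data. The tests were checked on simulated counts. Figures were drawn with matplotlib 3.10.9.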

Additional observations from a re-analysis of the deposited data

How the results depend on the processing

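The count of members called under IgG (2) was 1 with only the groups compared (Il6st), 0 with the leukocyte score and 1 to 3 with a sample left out. Under anti-PD1 (3) it was 0 with the leukocyte score, 2 with at least 10 counts in every sample, 4 by DESeq2, with only the groups compared or with the length trend removed, and 1 to 2 with a sample left out. For anti-PD1 in WT (1) it was 3 with no filter, 0 with at least 10 counts in every sample, 3 by DESeq2, 0 with only the groups compared, 0 with the leukocyte score, 2 with the length trend removed and 0 to 4 with a sample left out, with 4 reached without WT IgG replicate 4. Without a sample the interaction count (0) was 0 to 1, and anti-PD1 in A159V gave 0 in every alternative. The cause of these changes was not tested. A sample left out leaves a group of 2.

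Same-numbered samples of different groups did not deviate together (13 pairs, r from -0.18 to 0.20, median -0.02, 3 above 0.1), so the replicate number does not pair the samples. With the replicate number as a block, 7 members were called for anti-PD1 in WT and 1 in the interaction (Il6st). The numbers 4 and 5 each belong to 1 sample, so this block also removes WT IgG replicate 4 and A159V IgG replicate 5 from the comparisons.

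No member's call changed direction in any alternative. With a sample left out, 278 tested fold changes of members kept their side of the threshold, 16 lost a call and 6 gained one, and in the other alternatives 428 kept it, 10 lost a call and 16 gained one. Counts over all genes moved by over 1.5 times as follows. For anti-PD1 in WT, 90 genes became 771 with no filter and 25 with at least 10 counts in every sample. The count was 1431 by DESeq2, 188 by voom, 0 with only the groups compared and 1 with the leukocyte score. It was 4650 with the block, 181 with the length trend removed and 1 to 3458 with a sample left out. Under IgG, 4010 became 1399 with only the groups compared, 532 with the score and 2578 to 4717 with a sample left out. Under anti-PD1, 3075 became 2014 with at least 10 counts, 5320 with only the groups compared, 2 with the score, 5018 with the block and 1519 to 2171 with a sample left out. The interaction, 1 gene, became 37 with no filter, 268 by DESeq2, 2760 with the block, 0 with upper-quartile scaling and 0 to 1182 with a sample left out. Il6, Il11 and Lifr rest on 17 to 121 counts per library.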
